A study of Mus musculus with 10 samples.

Results

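The amino acid stress response and the cytosolic tRNA synthetases were followed through 42 genes, chosen by symbol from a table of 55487 gene rows. Of those rows, 13930 reached 1 TPM (transcripts per 1000000, a length-scaled abundance) in at least 5 of 10 libraries and were tested, and all 42 genes were among them. The libraries came from mice carrying MC38 colon carcinoma tumours, 5 of the Ptpn22 Ser452-to-Ala genotype (S452A) and 5 wild type (WT). Ptpn22, also called Pep, is a tyrosine phosphatase of blood cells. The mice were 8 weeks old when they received the tumour cells, and tumours were taken after 18 days, digested with collagenase and sorted for CD8+ T cells. The series' design text names the allele S425A where the sample labels have S452A, and TPM values per gene cannot show the base change itself. The labels number the mice 1 to 5 within each genotype and do not say whether litters or tumour batches were shared.

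The libraries went against their cell type label. The sum of 8 T cell markers (the CD3 chains, T cell receptor constant regions, Cd8a and Cd8b1) ranged over 15.0–135 TPM in S452A libraries and 12.1–126 TPM in WT libraries, with a median of 45.7 TPM in S452A and 63.3 TPM in WT. The sum of 8 macrophage markers, among them Apoe, C1qa and Cd68, ranged over 17341–22930 TPM in S452A and 16486–23049 TPM in WT. All 8 macrophage markers averaged 100 TPM or more, and none of the T cell markers did. Fibroblast markers (8 genes, such as Col1a2, Bgn and Postn) summed to 87.3–243 TPM in S452A and 188–361 TPM in WT. The values below therefore describe the sorted material as sequenced, and in such bulk RNA, fewer cells of a type and less RNA per cell cannot be told apart. Libraries held 13677–14388 genes at 1 TPM or more, and their read depth is unknown from TPM.

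When cells run short of amino acids, uncharged tRNA activates the kinase Gcn2 (gene Eif2ak4), and unfolded protein in the endoplasmic reticulum activates the kinase Perk (Eif2ak3). Both phosphorylate the translation factor eIF2 alpha, which slows general protein synthesis but raises translation of the Atf4 mRNA. The Atf4 protein, with C/EBP partners, then induces genes for amino acid synthesis, amino acid import and many of the enzymes that load tRNAs with their amino acid. Atf4 is controlled largely at translation, so its mRNA level is not a measure of its activity.

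The 42 genes spanned a wide range of levels. The highest mean over the 10 libraries was that of Slc3a2, the heavy chain shared by several amino acid exchangers, at 529 TPM. It was followed by Atf4 at 388 TPM and by Ppp1r15a, which recruits the phosphatase that reverses eIF2 alpha phosphorylation, at 305 TPM. The kinases were the lowest, with means of 4.55 TPM for Eif2ak3 and 5.80 TPM for Eif2ak4. The 20 synthetases lay between 18.0 TPM (Wars, for tryptophan) and 156 TPM (Nars, for asparagine). The spread between mice of one genotype also differed among members. The within-genotype standard deviation on the log2(TPM + 1) scale was 0.10 for Dars and 0.11 for Hars, but 0.73 for Slc7a11, 0.67 for Vldlr and 0.64 for Psph. The median over the members was 0.29, against 0.25 over the 7645 tested genes with a mean of 10 TPM or more.

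Atf4 and its C/EBP partners are known to bind a composite C/EBP-ATF element, and the windows below show where its letters stand before the members that hold it. The 250 bases before each RefSeq start site (GRCm38.p6) were searched on both strands for TGATGNAA, which reads TTNCATCA on the other strand, and for its stricter form TGATGCAA, which the first motif includes. Of 33 members with an entry, 7 (21.2%) held TGATGNAA and 5 (15.2%) held TGATGCAA. The shares were 2.46% and 0.693% of the 9373 tested genes with an entry, and 3.91% and 0.918% of all 27025 genes with one. Slc7a5, Cars, Hars, Lars, Mars, Nars, Rars, Vars and Wars had no entry. By role, the element stood before 2 of 6 feedback and stress effectors, 1 of 6 enzymes, 1 of 4 transporters and 3 of 12 synthetases. All 3 synthetases were among 7 counted in the Atf4 programme, and none was among the 5 others. Members and the programme list were chosen by name as genes of this response or as synthetases, so these shares are not a test. Windows are given 5′ to 3′ on the gene's strand, with the element in capitals. They lie at chr6:7693210-7693269 for Asns (minus strand), chr3:50443646-50443705 for Slc7a11 (minus), chr2:119351023-119351082 for Chac1 (plus), chr8:111033704-111033763 for Aars (plus), chr15:11399659-11399718 for Tars (minus) and chr6:55037941-55038000 for Gars (plus).
Asns: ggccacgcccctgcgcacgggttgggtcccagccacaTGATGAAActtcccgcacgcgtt
Slc7a11: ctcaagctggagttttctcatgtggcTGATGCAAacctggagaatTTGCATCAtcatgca
Chac1: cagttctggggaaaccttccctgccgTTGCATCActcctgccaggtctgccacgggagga
Aars: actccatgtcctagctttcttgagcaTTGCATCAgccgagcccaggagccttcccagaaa
Tars: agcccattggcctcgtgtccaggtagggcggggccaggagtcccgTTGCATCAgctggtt
Gars: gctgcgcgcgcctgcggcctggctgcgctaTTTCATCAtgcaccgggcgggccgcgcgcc
Slc7a11 alone held the element in both orientations, 66 and 47 bases before its start. Vldlr, the seventh holder, carried it 200 bases before the second of its listed start sites. A match is a run of letters and does not show that Atf4 was bound in these cells.

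**Figure D1:**
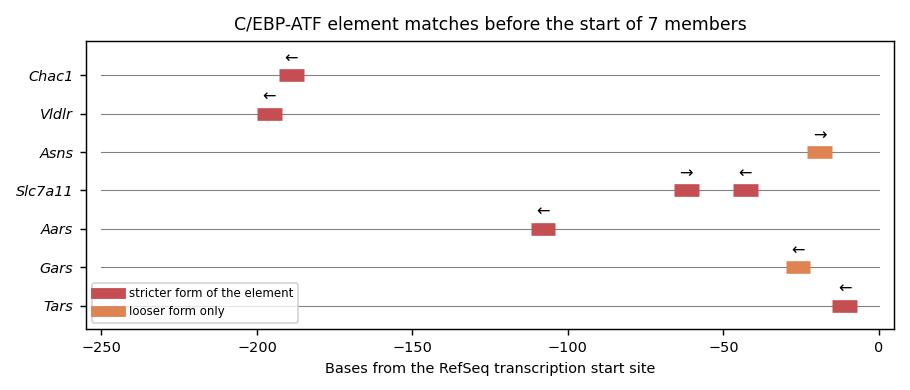
Position of each C/EBP-ATF element match in the 250 bases before the RefSeq start site of the 7 members that hold one, in bases from the start site. Arrows point right where the element reads forward on the gene's strand and left where it reads on the other strand, and the bars show that matches lie between 200 and 8 bases before the start, with a pair in Slc7a11.

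No member passed the test for a difference between the genotypes. In the fit of log2(TPM + 1) across all tested genes with limma, 0 of 42 members had an adjusted p under 0.05, and the smallest among them was 0.952. In the same fit 1 of 13930 genes (0.00718%) passed, the unnamed locus Gm36079, which is given here after its values were seen. It averaged 9.998 ± 4.56 TPM in S452A (SD, n = 5) and was listed at 0 in all 5 WT libraries. At an unadjusted p under 0.05 there were 0 of 42 members, against 660 genes or 4.74% of all tested. The S452A and WT libraries did not overlap for 0 of 42 members, against 90 genes or 0.646% of all tested. The log2 difference, S452A minus WT, lay below 0 for 28 of 42 members, against 53.4% of all tested genes. The median difference was -0.05 over the members and -0.02 over all tested genes. For 39 members the 95% interval of the difference stayed within a 2-fold change of TPM + 1 in either direction, and the exceptions were Phgdh, Psph and Slc7a11. The added 1 shrinks changes of low genes. Vldlr, at a mean of 7.05 TPM, had an interval down to -0.97, so its TPM is not held within 2-fold.

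**Figure D2:**
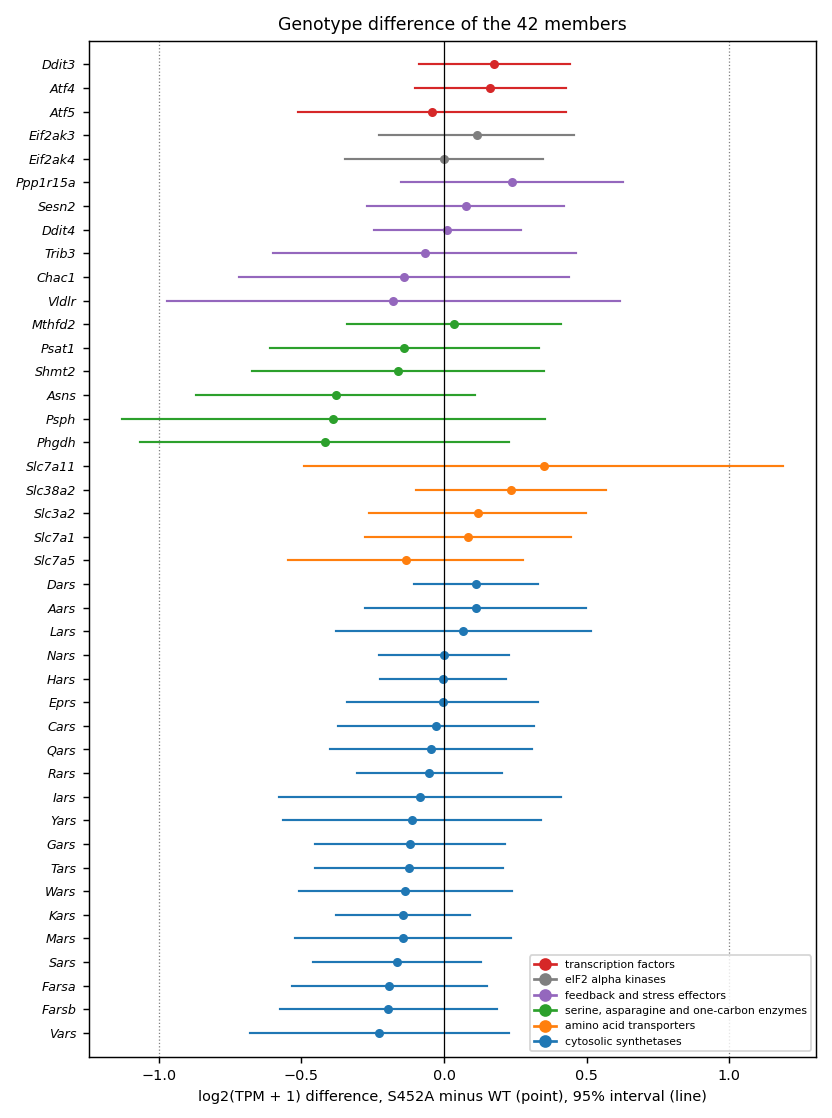
Log2(TPM + 1) difference, S452A minus WT, of each of the 42 members (point) with its 95% interval from limma (line), grouped and coloured by role and with dotted lines at a 2-fold change of TPM + 1. Every interval includes 0, the synthetases sit between -0.23 and 0.11, and Slc7a11, Psph and Phgdh have intervals that reach past the dotted lines.

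Atf4 and Ddit3, which encodes the pro-apoptotic factor Chop, were abundant in both genotypes, and their S452A means were higher by less than the spread between mice. Atf4 (chr15:80255184-80257541 in GRCm38, plus strand) was at 403, 338, 482, 455 and 372 TPM in S452A mice 1 to 5, against 298, 363, 379, 423 and 365 TPM in WT mice 1 to 5. S452A 3 and S452A 4 were the highest and WT 1 the lowest, and the other libraries of the genotypes were mixed. The log2 difference was 0.16 (SE 0.12, 95% interval -0.10 to 0.43, limma adjusted p = 0.952, exact two-sided permutation p = 0.230), and it was 0.10 without S452A 3 and 0.09 without WT 1. Ddit3 was at 160, 190, 201, 215 and 167 TPM in S452A mice, against 131, 167, 194, 176 and 158 TPM in WT mice. S452A 4 was the highest and WT 1 the lowest, and the groups overlapped (log2 difference 0.18, SE 0.12, limma adjusted p = 0.952). A separate short row of the same symbol was listed at 129 TPM in WT 1 and at 0 in the other 9 libraries, and without WT 1 the Ddit3 difference was 0.10. Atf5, a related factor, averaged 27.0 ± 7.89 TPM in S452A and 27.6 ± 7.14 TPM in WT (SD, n = 5 each).

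Neither eIF2 alpha kinase passed the test between genotypes. Eif2ak4 was at 6.57, 5.16, 4.93, 5 and 7.46 TPM in S452A mice, against 6.16, 6.27, 4.69, 5.70 and 6.08 TPM in WT mice. Eif2ak3 was at 5.56, 4.54, 4.82, 4.79 and 4.09 TPM in S452A mice, against 5.13, 3.56, 4.37, 3.69 and 4.94 TPM in WT mice. The genotypes overlapped for both genes, with log2 differences of 0.00 (SE 0.16) for Eif2ak4 and 0.12 (SE 0.16) for Eif2ak3.

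Among the 6 feedback and stress effectors, 3 had a higher and 3 a lower S452A mean on the log2 scale, and none passed the test. Ppp1r15a was at 296, 228, 397, 439 and 301 TPM in S452A mice, against 220, 321, 250, 338 and 258 TPM in WT mice. S452A 3 and 4 exceeded every WT library, while S452A 2 lay near the bottom of the WT range (log2 difference 0.24, SE 0.18, or 0.13 without S452A 4). Trib3, a pseudokinase that restrains Atf4 and Chop, was at 36.8, 39.7, 28.5, 42.3 and 19.5 TPM in S452A mice, against 21.6, 34.2, 52.1, 37.5 and 30.2 TPM in WT mice. Chac1, which degrades glutathione, was at 13.0, 10.3, 6, 11.9 and 6.83 TPM in S452A mice, against 6.23, 8.17, 16.8, 11.7 and 11.1 TPM in WT mice. For both genes WT 3 was the highest library, while the lowest was S452A 5 for Trib3 and S452A 3 for Chac1, and the groups overlapped. Their log2 differences were -0.07 (SE 0.24) for Trib3 and -0.14 (SE 0.27) for Chac1. The remaining 3 genes were Ddit4 and Sesn2, which dampen mTORC1 signalling, and the lipoprotein receptor Vldlr, with log2 differences of 0.01, 0.08 and -0.18.

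The 6 enzymes of serine, asparagine and one-carbon metabolism had the lowest median difference of any role, -0.27, with 5 genes lower and 1 higher in S452A, and none passed the test. Asns, which makes asparagine (chr6:7675169-7693254, minus strand), was at 35.7, 54.8, 35.2, 36.1 and 23.8 TPM in S452A mice, against 37.0, 35.2, 71.3, 52.3 and 46.9 TPM in WT mice. WT 3 was the highest and S452A 5 the lowest, and S452A 2 lay above all WT libraries but WT 3 (log2 difference -0.38, SE 0.23, 95% interval -0.87 to 0.11, limma adjusted p = 0.952). Phgdh, the first enzyme of serine synthesis, was at 34.7, 39.0, 11.7, 20.7 and 25.8 TPM in S452A mice, against 32, 23.1, 53.1, 33.0 and 29.5 TPM in WT mice. Psat1, which acts after Phgdh, was at 30.7, 30.0, 15.9, 19.9 and 25.1 TPM in S452A mice, against 24.2, 18.2, 38.4, 28.4 and 25.1 TPM in WT mice. In both, S452A 3 was the lowest and WT 3 the highest of the 10 libraries. Without S452A 3 the Phgdh difference of -0.42 (SE 0.30) was -0.17, and the Psat1 difference of -0.14 (SE 0.22) was -0.0018. Mthfd2, a mitochondrial folate enzyme, was at 119, 105, 88.0, 111 and 95.2 TPM in S452A mice, against 65.2, 118, 129, 116 and 89.96 TPM in WT mice. WT libraries held both the lowest and the highest of these values, and both genotypes averaged 104 TPM. Psph, the last enzyme of serine synthesis, had a log2 difference of -0.39 (SE 0.34), and the mitochondrial serine enzyme Shmt2 one of -0.16 (SE 0.24).

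Some members share bases with other genes. Phgdh has 11 near-identical copies in the annotation, and the copy Gm7901, 98.7% identical, averaged 25.5 ± 8.86 TPM in S452A and 33.6 ± 12.6 TPM in WT (SD, n = 5 each), nearly as much as Phgdh itself. With the copies summed, Phgdh averaged 56.3 ± 21.0 TPM in S452A and 73.5 ± 25.6 TPM in WT, with a log2 difference of -0.41 (SE 0.29). Exons of Psph overlap those of Cct6a on the opposite strand, as do those of Ddit3 with Mars, Hars with Hars2, and Atf5 with Il4i1 and Nup62, and the sources do not say whether the counting used strand.

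Of the 5 amino acid transporters, 4 had a higher and 1 a lower S452A mean on the log2 scale, none past the threshold. Slc7a11, the cystine importer, was at 38.2, 21.0, 36.9, 39.2 and 12.1 TPM in S452A mice, against 8.54, 23.0, 19.97, 38.01 and 26.3 TPM in WT mice. S452A 1, 3 and 4 lay near WT 4, while WT 1 was the lowest of all, and the log2 difference of 0.35 (SE 0.39) was 0.05 without WT 1. Slc3a2 was at 481, 428, 696, 692 and 465 TPM in S452A mice, against 402, 629, 457, 605 and 438 TPM in WT mice. Slc38a2, a neutral amino acid importer that cells induce on starvation, was at 64.0, 56.6, 83.9, 82.1 and 56.8 TPM in S452A mice, against 46.8, 49.0, 64.3, 67.3 and 62.2 TPM in WT mice. For Slc3a2 and Slc38a2, S452A 3 and 4 lay above every WT library and the other S452A libraries inside the WT range, with log2 differences of 0.12 (SE 0.17) for Slc3a2 and 0.24 (SE 0.15) for Slc38a2. The Slc3a2 difference was 0.03 without S452A 3 or S452A 4 and 0.04 without WT 1, and the difference of the Slc38a2 medians was 0.04. Slc7a5, the leucine transporter that pairs with Slc3a2, was at 21.8, 18.0, 11.4, 14.9 and 15.5 TPM in S452A mice, against 16.6, 13.5, 24.9, 16.8 and 18.0 TPM in WT mice. Here S452A 3 was the lowest library and WT 3 the highest, and the log2 difference was -0.13 (SE 0.19). Slc7a1, the arginine and lysine importer, averaged 11.5 ± 2.11 TPM in S452A and 10.8 ± 2.05 TPM in WT.

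**Figure D3:**
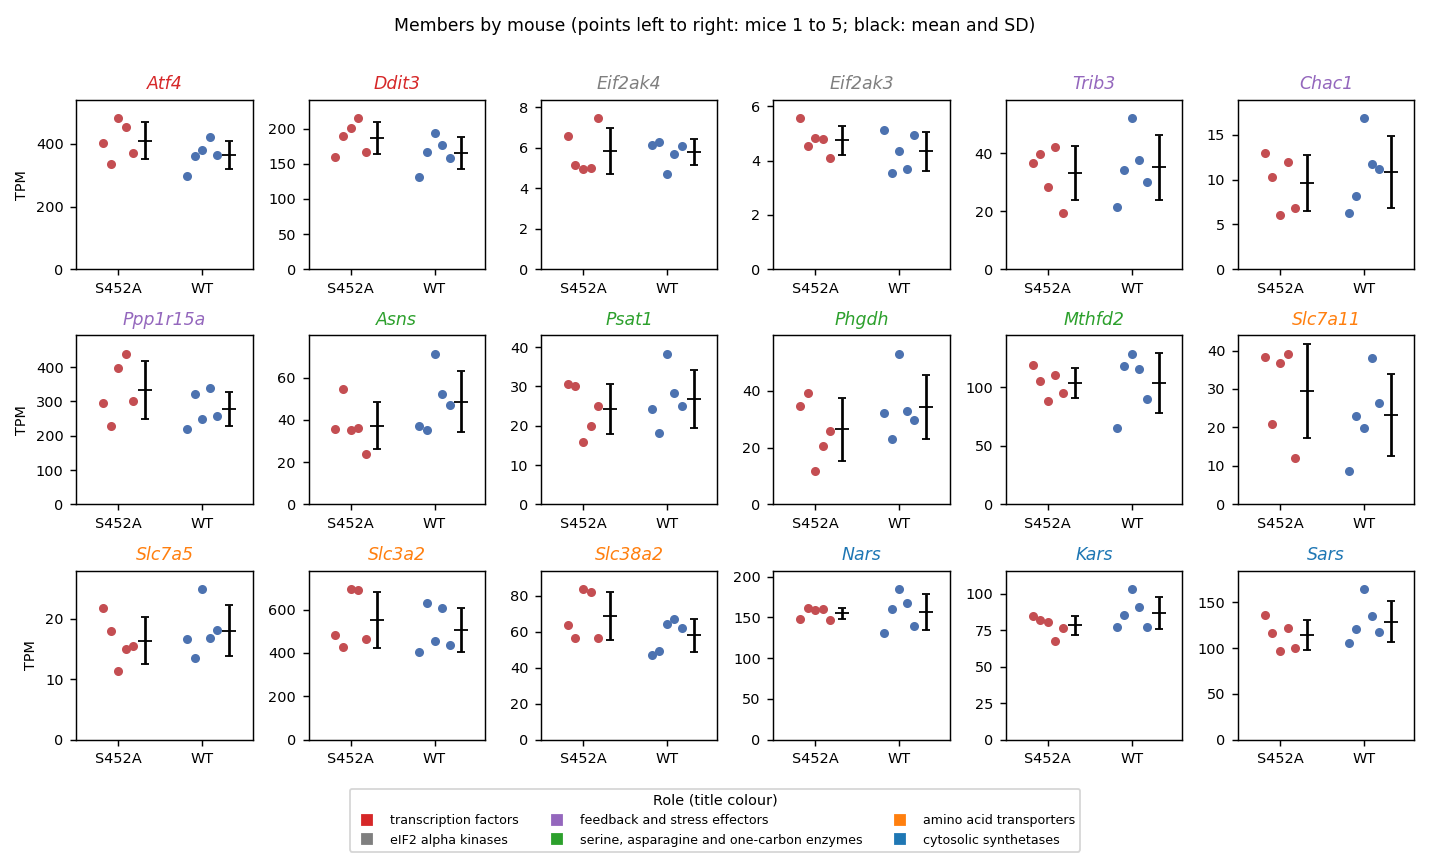
TPM of 18 members in each mouse, S452A left (red) and WT right (blue), with mice 1 to 5 from left to right in each genotype and the mean and SD (n = 5) in black beside them; title colours give the role. The genotypes overlap in every panel, and S452A 3 is low for Phgdh and Psat1 but the highest library for Atf4, Slc3a2 and Slc38a2.

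The 20 cytosolic synthetases, enzymes that attach an amino acid to its tRNA, had 17 genes lower and 3 higher in S452A, against 53.4% of all tested genes below 0. Their median difference was -0.10, and none passed the test or reached an unadjusted p under 0.05. The mean of the 20 genes on the log2(TPM + 1) scale was 5.43 ± 0.15 in S452A and 5.51 ± 0.18 in WT (SD, n = 5 each), a gap below the spread of either genotype. The genes covary between mice, as given below, so 17 of 20 is not a count of independent genes, and without WT 3 the median difference was -0.02. Nars was at 148, 161, 160, 160 and 147 TPM in S452A mice, against 130, 160, 185, 167 and 139 TPM in WT mice. Sars, for serine (chr3:108424865-108445209, minus strand), was at 136, 116, 96.6, 122 and 100.5 TPM in S452A mice, against 106, 121, 165, 135 and 118 TPM in WT mice. Kars, for lysine (chr8:111993443-112011323, minus strand), was at 84.7, 81.7, 80.4, 67.5 and 76.7 TPM in S452A mice, against 77.1, 85.6, 103, 90.7 and 77.2 TPM in WT mice. WT 3 was the highest library for all 3 genes. The log2 differences were 0.00 (SE 0.10) for Nars, -0.17 (SE 0.13) for Sars and -0.14 (SE 0.11) for Kars. The lowest differences among the synthetases were those of Vars, for valine (-0.23, SE 0.21), and of Farsb and Farsa, the subunits of the phenylalanine enzyme (-0.20, SE 0.18, and -0.19, SE 0.16). The 3 with a higher S452A mean were Dars, for aspartate (0.11, SE 0.10), Aars, for alanine (0.11, SE 0.18), and Lars, for leucine (0.07, SE 0.21).

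Subsets of the synthetases had medians close to one another. The 12 counted in the Atf4 programme had 10 genes lower and 2 higher in S452A, with a median of -0.10, and the 8 others had 7 lower and 1 higher, also with a median of -0.10. The 8 enzymes of the multisynthetase complex, a cytosolic assembly of synthetases, had a median of -0.05, and its 3 scaffolds (Aimp1, Aimp2 and Eef1e1) a median of -0.13. Of the synthetases that serve mitochondria, 16 of 17 were tested, with 8 lower and 8 higher and a median of -0.01. Other genes of the response were listed as well, with 26 of 30 tested. They had 13 lower and 13 higher in S452A, and none passed. Of the 26, 4 had an unadjusted p under 0.05, against 4.74% of all tested genes, with 3 higher and 1 lower in S452A. Nupr1, a stress-induced chromatin protein, averaged 328 ± 55.1 TPM in S452A and 245 ± 31.8 TPM in WT (SD, n = 5 each; log2 difference 0.41, SE 0.13, limma adjusted p = 0.952). Cebpg, a partner of Atf4, averaged 71.6 ± 4.32 TPM in S452A and 60.6 ± 1.76 TPM in WT (log2 difference 0.24, SE 0.08, limma adjusted p = 0.952). The lowest S452A library for Cebpg, at 66.0 TPM, lay above the highest WT library, at 62.6 TPM, and groups that do not overlap, in either direction, made up 0.646% of all tested genes. The other 2, named after their values were seen, were the repressor Jdp2 (log2 difference 0.36, SE 0.15) and the amino acid transporter Slc36a4 (-0.38, SE 0.17). The 17 genes of the unfolded protein response of the endoplasmic reticulum had 11 lower (64.7%) and 6 higher, against 53.4% of all tested genes below 0. Of the 17, 1 had an unadjusted p under 0.05, against 4.74% of all tested genes. It was the cofactor Sdf2l1 (log2 difference -0.31, SE 0.13, limma adjusted p = 0.952). Next by p was the disulfide isomerase Pdia4, at -0.21 (SE 0.13).

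Although no member passed the test between genotypes, the members varied together from mouse to mouse. Pearson r of log2(TPM + 1) was taken for each pair of genes over the 10 mice, after each gene's genotype means were removed. Among the 19 Atf4 targets other than synthetases the median r was 0.47 (jackknife SE over mice 0.09, 171 pairs), among the 20 synthetases 0.36 (SE 0.11, 190 pairs) and between the lists 0.39 (SE 0.13, 380 pairs). Over all 97015485 pairs of tested genes it was 0.01. These are descriptions over libraries that also share their cell makeup, and no test was made of them.

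Among subsets of the synthetases the covariation differed in size, by amounts that its error over mice did not resolve. The median r was 0.59 (jackknife SE 0.21, 66 pairs) among the 12 of the Atf4 programme and 0.20 (SE 0.18, 28 pairs) among the 8 others. The difference of 0.39 had a jackknife SE of 0.28 and ranged over 0.24–0.56 as each mouse was left out. With the Atf4 targets, the programme synthetases had a median r of 0.47 and the others 0.17, a difference of 0.30 with a jackknife SE of 0.23. Mitochondrial synthetases had a median r of 0.09 among themselves and 0.02 with the cytosolic ones. Enzymes of the multisynthetase complex had a median r of 0.42, and synthetases outside it 0.36. Single pairs ran much closer, and those given here were picked after the values were seen, from the highest of all member pairs. The r was 0.97 for Trib3 and Aars, 0.95 for Chac1 and Sars and 0.96 for Psat1 and Phgdh, consecutive steps of serine synthesis.

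**Figure D4:**
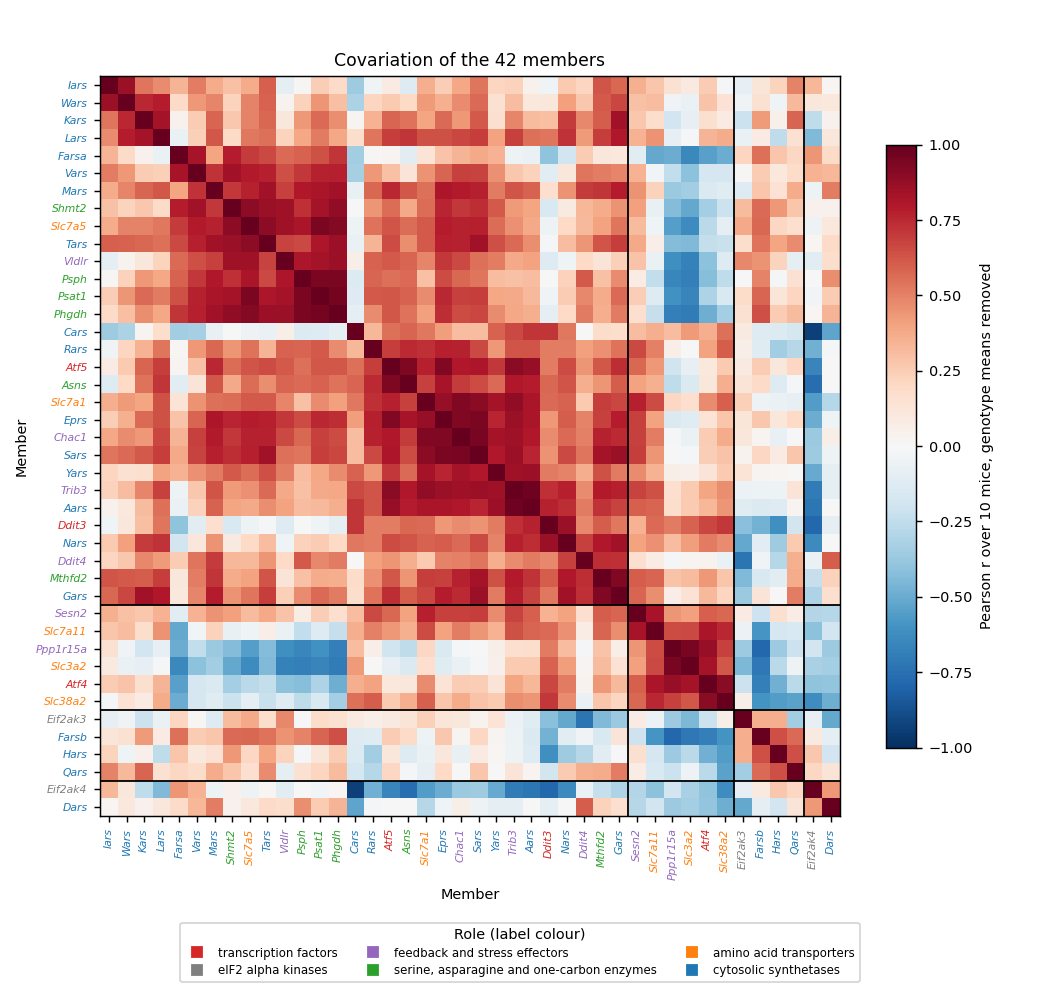
Pearson r between all pairs of the 42 members over 10 mice, genotype means removed, ordered by average linkage with lines at a division into 4 groups and label colours for the role. A block of 30 genes holds most synthetases and all 6 enzymes, and a block of 6 holds Atf4, Slc38a2, Slc3a2, Ppp1r15a, Slc7a11 and Sesn2. Cells between the block of 6 and the serine enzymes Phgdh, Psat1 and Psph are blue, except those of Sesn2 (r = 0.17 with Phgdh and 0.25 with Psat1).

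Clustering divided the members into unequal groups, and the number of 4 groups was chosen after the values were seen. The largest held 30 genes with a median r of 0.55: all 6 enzymes, 16 synthetases, Trib3, Chac1, Ddit4, Vldlr, Ddit3, Atf5, Slc7a5 and Slc7a1. A group of 6 held Atf4, Slc38a2, Slc3a2, Slc7a11, Ppp1r15a and Sesn2, with a median r of 0.68. Between these 2 groups the median r was 0.17, above the 0.01 of all gene pairs, and 69 of 180 pairs (38.3%) were below 0, against 48.9% of all pairs of tested genes. The lowest of the 180 was Slc3a2 with Phgdh at -0.70. All 6 genes of the Atf4 group had a higher S452A mean on the log2 scale (median difference 0.20), while 24 of the 30 had a lower one (median -0.12). Of all tested genes, 53.4% lay below 0, and none of the members' differences passed the test. The groups were formed from covariation over the same libraries, so these are not counts of independent genes. The remaining groups were Eif2ak4 with Dars, and Eif2ak3 with Farsb, Hars and Qars. Eif2ak4 ran against several members, with r of -0.93 with Cars, -0.78 with Ddit3 and -0.76 with Asns. These were among the lowest r of all member pairs, picked after the values were seen, for a gene at 4.69 to 7.46 TPM. The C/EBP-ATF element shown above was held by 1 of the 6 genes of the Atf4 group, Slc7a11, and by 6 of the 30. In the group of 30, Slc7a5, Cars, Lars, Mars, Nars, Rars, Vars and Wars had no promoter entry.

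A small number of members followed the Atf4 mRNA itself. Of 41 correlations with Atf4 over the 10 mice, with genotype means kept, 23 were positive and 18 negative. With a 100000-resample two-sided permutation test and Benjamini-Hochberg adjustment over the 41, 4 passed by Pearson's r and 1 by Spearman's rho. Only members were tested against Atf4, so no share over all tested genes stands beside these counts. Of all pairs of tested genes, with genotype means removed, 11.2% had r above 0.5. Slc38a2 had r = 0.92 (adjusted permutation p = 0.0109) and rho = 0.96 (adjusted permutation p = 0.00205), and r = 0.83 without S452A 3 and WT 1, the mice farthest from the median of Atf4. Ppp1r15a had r = 0.89 (adjusted permutation p = 0.0109) and rho = 0.81 (adjusted permutation p = 0.0987), and r = 0.85 without those mice. Slc7a11 had r = 0.83 and rho = 0.73, and Slc3a2 r = 0.82 and rho = 0.81, each with an adjusted permutation p of 0.0311 by r. Their adjusted permutation p by rho was 0.210 for Slc7a11 and 0.0987 for Slc3a2, and without those mice r was 0.69 and 0.71. Leaving out single mice ended several of these calls. Slc38a2 and Ppp1r15a passed in 9 of 10 such runs and failed without S452A 3, and the lowest r over the runs was 0.88 for Slc38a2 and 0.87 for Ppp1r15a. Slc7a11 and Slc3a2 passed in 2 of 10 runs each. With genotype means removed, r was 0.90 for Slc38a2, 0.87 for Ppp1r15a, 0.82 for Slc7a11 and 0.83 for Slc3a2. The adjusted permutation p were 0.00246, 0.0297, 0.0459 and 0.0411 in that order. That permutation shuffled the 10 residuals without allowing for the means removed. These p values are therefore too small, and no pass is read from them.

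Asns, a classical Atf4 target, was not among them, with r = -0.10 (adjusted permutation p = 0.921), or 0.12 with genotype means removed. Phgdh had r = -0.57 (adjusted permutation p = 0.381) and Psat1 r = -0.36 (adjusted permutation p = 0.647). The most negative r was that of Farsb, -0.73 (adjusted permutation p = 0.124), which was -0.82 (adjusted permutation p = 0.0344) after rescaling by the median log ratio and -0.48 without S452A 3 and WT 1. Ddit3 had r = 0.73 with an adjusted permutation p of 0.124, passed without S452A 2 (r = 0.86), and had r = 0.38 without S452A 3 and WT 1.

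The mouse-to-mouse pattern moved with the fibroblast markers. With genotype means removed, the mean of the 8 fibroblast markers had r = 0.88 with the mean of the 6 enzymes, 0.84 with that of the 20 synthetases and 0.78 with that of the 19 targets, over 10 mice. It had r = -0.09 with the mean of the Atf4 group and 0.87 with that of the 30 genes. The Atf4 group mean had r = 0.65 with dendritic cell markers (3 tested), 0.59 with endothelial markers (7 tested) and 0.29 with neutrophil markers (3 tested). With macrophage, T cell and B cell markers it had r of 0.08, -0.13 and -0.19. With the 17 genes of the unfolded protein response it had r = 0.79. S452A 3 stood 0.64 below its genotype mean in fibroblast markers on the log2 scale and 0.61 below it in the enzymes, and WT 3 stood 0.46 and 0.55 above its own. All 8 fibroblast markers were lower in S452A (median difference -0.62), against 53.4% of all tested genes. Of the 8, 4 had an unadjusted p under 0.05, against 4.74% of all tested genes, and none passed the test. The macrophage marker mean had r = -0.73 with the enzymes and -0.58 with the synthetases, and the T cell marker mean had r = -0.01 and -0.16 with them. With the fibroblast marker mean also removed, the median r was 0.24 among targets, 0.13 among synthetases and 0.19 between them, and 0.47 among programme synthetases. It was -0.05 among the other synthetases, -0.07 between them and the programme synthetases, and -0.06 between them and the targets. With the T cell marker mean removed instead, it was 0.48 among targets, 0.36 among synthetases, 0.39 between them, 0.60 among programme synthetases and 0.20 among the others. Beyond these values, the part of fibroblast RNA in the covariation was not tested. With genotype means and the fibroblast mean removed, r with Atf4 was 0.90 for Slc38a2, 0.87 for Ppp1r15a and 0.84 for Slc7a11. Their adjusted permutation p were 0.0299, 0.0326 and 0.0358. For Slc3a2 r was 0.82 (adjusted permutation p = 0.0522). Here too the permutation did not allow for the means removed, so these p values are too small and no pass is read from them.

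**Figure D5:**
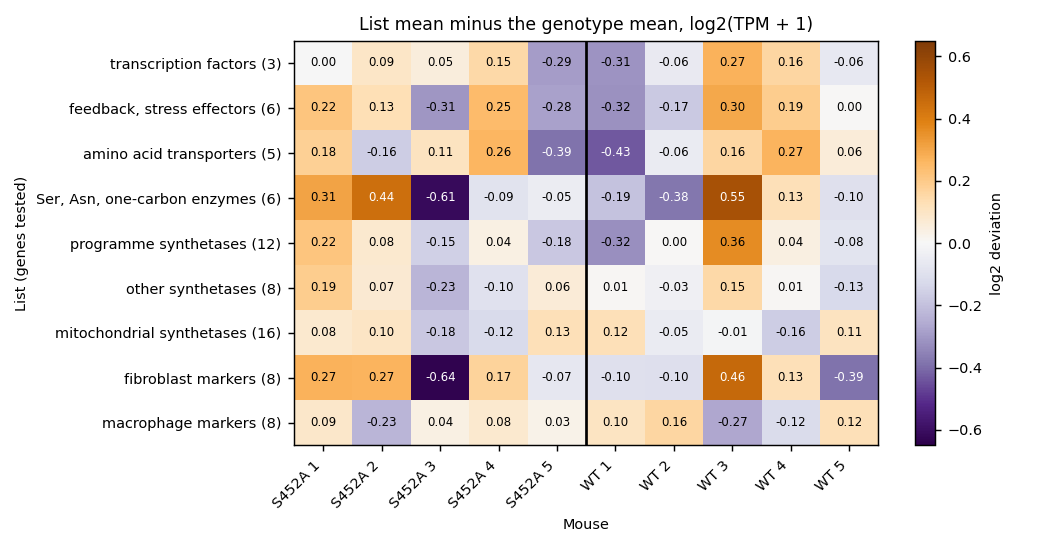
Mean of each list in each mouse minus the mean of its genotype, in log2(TPM + 1), with S452A mice left of WT mice. S452A 3 is the lowest and WT 3 the highest of the 10 mice for both the enzymes (-0.61 and 0.55) and the fibroblast markers (-0.64 and 0.46), while the transporters have their lowest value in WT 1 (-0.43).

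None of 18 proliferation genes passed the test between genotypes. Their log2 difference lay below 0 for 16, against 53.4% of all tested genes, with a median of -0.19, and 4 had an unadjusted p under 0.05, against 4.74% of all tested genes. Their mean had r = 0.73 with that of the 8 synthetases outside the Atf4 programme and 0.90 with that of the mitochondrial synthetases, against 0.14 with the programme synthetases, over 10 mice with genotype means removed. The mean of the Atf4 group had r = -0.64 with it and -0.87 with the mitochondrial synthetases.

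Among genes that are no members, those with the highest mean r with the 19 targets over the 10 mice were Mcrip1 (0.60), the mitochondrial chaperone Hspa9 (0.60), Gm18335 (0.60), Dab2ip (0.60) and Plxna3 (0.60). For the 20 synthetases they included the growth factor Gdnf (0.58), the cell cycle gene Dtl (0.58), the matrix gene Tnc (0.58) and Lzts2 (0.58). Hspa9 was at 174, 166, 140, 162 and 130 TPM in S452A mice, against 121, 144, 194, 166 and 132 TPM in WT mice. As for most members of the group of 30, WT 3 was its highest library, and the genotypes overlapped.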

How the data were processed

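RNA of the sorted cells was made into libraries with a directional kit from 40 ng, per the labels' protocols. The authors deposited one table of TPM values per gene and library. The submitters' processing notes name STAR 2.7.9a, RSEM 1.3.0 and GRCm38.p6, but neither labels nor file give an annotation release or a strand setting. TPM keeps no read depth, so no counting error can be given, and precision rests on 5 mice per genotype.

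Genes with 1 TPM or more in 5 libraries were tested on log2(TPM + 1), which understates changes of low genes, with limma 3.58.1 (trend, two-sided, Benjamini-Hochberg adjusted p under 0.05) in R 4.3.3. The test was also run on simulated data. Exact permutation of 5 against 5 mice can reach p = 0.00794. Copies were found with blastn 2.17.0 at 95% identity or more, and promoters came from RefSeq. Alternatives were other pseudocounts, filters, scalings, covariates, a rank test, a replicate block and single mice left out.

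Members and lists were chosen with earlier results of these data known. Values in every mouse are given for 9 set genes and, per role, for the highest member and the 2 of smallest p. Of the genes most like the synthetases, 1 is not reported here.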

Additional observations from a re-analysis of the deposited data

Results flagged for a closer look

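Tars, the threonine synthetase, had 1 library that stood apart. In WT 3 it was at 44.7 TPM, while the other 4 WT libraries lay between 32.03 and 35.1 TPM. The gap to the nearest library was 0.758 of the whole WT range, above Dixon's critical value of 0.71 for 5 samples. Of 84 groups looked at (42 genes in each genotype) this was the 1 that passed, and chance passes about 1 in 20. WT 3 was also the highest WT library for the enzymes and for the fibroblast markers, and no test was made of this library's source.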

How the results depend on the processing

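The count of members that passed was 0 under every alternative, the replicate block (0 members, 1 gene) and the exact rank-sum test included. The rank-sum run is not informative here. The smallest p it can reach, 0.00794, does not pass adjustment over 13930 genes unless very many genes reach it. Without S452A 2, 2 of 42 members had an unadjusted p under 0.05, against 942 of all 13930 genes tested in that run. Over all genes, 1 passed, and 0 passed with 1 TPM asked of all 10 libraries (565 at an unadjusted p under 0.05) or by the exact rank-sum test (445). The stricter filter drops Gm36079, listed at 0 in every WT library, so that run could not call it. Same-numbered mice did not deviate together (correlations -0.15 to 0.07), so the numbers were not read as pairs.

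Differences near 0 changed sign. Trib3 was 0.10 by medians (rank-sum) and ranged over -0.22 to 0.11 with single mice left out, Mthfd2 was -0.13 by medians and ranged over -0.12 to 0.12, and Chac1 ranged over -0.30 to 0.024. Eif2ak4 was 0.0019 with a pseudocount of 5, 0.011 with median-ratio scaling, 0.040 with quantile scaling, 0.0044 with the T cell marker mean as covariate, and -0.082 to 0.047 with single mice left out. Without WT 3, Asns was -0.23, Slc7a5 -0.01, Sars -0.07 and Kars -0.08. Nars was 0.014 with median-ratio scaling, 0.017 with the macrophage mean as covariate, and -0.063 to 0.062. The median difference of the targets ranged over -0.14 to 0.09, and was 0.01 with the macrophage mean, so its sign is not set. That of the synthetases ranged over -0.16 to -0.02.

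Removing the fibroblast mean gave a median r of 0.24 among targets, 0.13 among synthetases and 0.19 between them. Alternatives for the correlations with Atf4 and for summed copies were chosen after seeing the data. Of the correlations with Atf4, 4 passed by Pearson's r, 1 by Spearman's rho, 5 with median-ratio scaling (Farsb, negative, joined), and 0 to 4 with single mice left out, the 0 without S452A 3. The cause was not tested. With 5 mice per genotype and unknown depth, the intervals given bound each difference.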
